A study of Glycine max with 9 samples.

Results

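A set of 54 abundant seed transcripts of 9 soybean lines was described here, namely rows of the deposited table with a mean above 1000 FPKM (a fragment number scaled to transcript length and library size) and a genomic span over 200 bp. Of 33779 rows in all, 65 had a mean above 1000 FPKM. Of these, 3 spanned 200 bp or less and 8 further rows, among them the glycinin genes Gy1, Gy4 and Gy5, were set aside by the rule, which left 54. The mean FPKM chose the transcripts, so their abundance is no result, and the Z-scores described below were not part of the choice. They corresponded to 53 gene models, since the lectin gene Le1 was present as a pair of rows with an identical span.

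RNA was sequenced from whole mid-stage seeds (stage S6) of soybean plants grown in chambers at 25°C by day and 23°C by night, with 50% humidity and days of 16 h. The lines differed in seed oil. The labels describe Jack as having an oil content and composition like those of commodity oil, M23 as a mid oleic acid line, N0304-303-3 as low in palmitic acid, mid in oleic acid and low in linolenic acid, FAM94 as high in stearic acid, R95-1705 as high in protein, and R02-6268F, R05-4256, R05-591 and R08-1450 as high oil lines. Each line had 1 library, so differences between lines could not be set against an error and none was tested. The labels do not say how many plants or seeds went into a library.

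For each gene the table gives 1 mean FPKM over the 9 lines, which is the authors' mean, and a Z-score in each line. A Z-score tells how many standard deviations a line's log2 FPKM lies above or below the gene's own mean over the lines. It says nothing about how many fold a transcript differed between lines. The read depth of a line cannot be read from these values. In whole seeds, fewer cells of a type and less RNA per cell cannot be told apart.

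Seeds at this stage fill their cotyledon cells with protein and oil. The storage globulins glycinin and β-conglycinin and the smaller 2S albumins are packed into protein storage vacuoles, together with lectin and with Bowman-Birk and Kunitz inhibitors of digestive proteases. Oil is stored in oil bodies coated with oleosins, and lipoxygenases oxidize polyunsaturated fatty acids. As seeds approach drying, they accumulate late embryogenesis abundant (LEA) proteins and dehydrins, which are known for protecting cells during water loss. Other proteins named seed maturation (PM) proteins accumulate as well, and their annotations are of several kinds.

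The 54 transcripts held 32.1% of the summed mean FPKM of the table. Their means ranged from 1111 to 21377 FPKM with a median of 2530 FPKM, against a median of 3.53 FPKM over all genes. Most of this amount came from proteins of seed filling and maturation. The 10 storage protein rows held 8.27% of the summed FPKM, the 6 lipoxygenase and oleosin rows 4.94%, the 12 maturation rows 3.97%, the 6 protease inhibitor rows 3.93%, the 4 protease rows 3.91% and the 3 metallothionein rows 1.38%. Markers of the seed (glycinin, β-conglycinin, 2S albumin, lectin, Kunitz inhibitor and oleosin) were all among them. The transcripts came from all 20 chromosomes, at most 7 from 1 chromosome (chromosome 13), and their median span was 1808 bp, against 4125 bp over all genes. Coordinates below are those of the deposited table on the soybean genome with the annotation Gmax_189.

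The most abundant storage protein transcript of the 54 was that of Gy2 (Glyma03g32020, XLOC_007519, chromosome 3, 39830109 to 39837394), a glycinin, with a mean of 21377 FPKM. Among the protease inhibitors the Bowman-Birk gene Glyma16g33400 (XLOC_042764, chromosome 16, 36335847 to 36336538) led with 17690 FPKM. The leading protease transcript was the 34 kDa maturing seed vacuolar thiol protease Glyma08g12270 (XLOC_021282, chromosome 8, 8942710 to 8945060) with 14645 FPKM. Lox3 (Glyma15g03030, XLOC_039185, chromosome 15, 2123571 to 2128078), a lipoxygenase, followed with 14408 FPKM. These transcripts belonged to different patterns over the lines, as given below. Glyma05g33200, with a tentative defensin annotation (XLOC_011487, chromosome 5, 37927978 to 37928832), had 10506 FPKM. The uncharacterized Glyma10g35871 (XLOC_026331, chromosome 10, 44064735 to 44077667) had 10214 FPKM. Of the 54, only these 6 reached a mean of 10000 FPKM, and 20 were below 2000 FPKM.

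**Figure D1:**
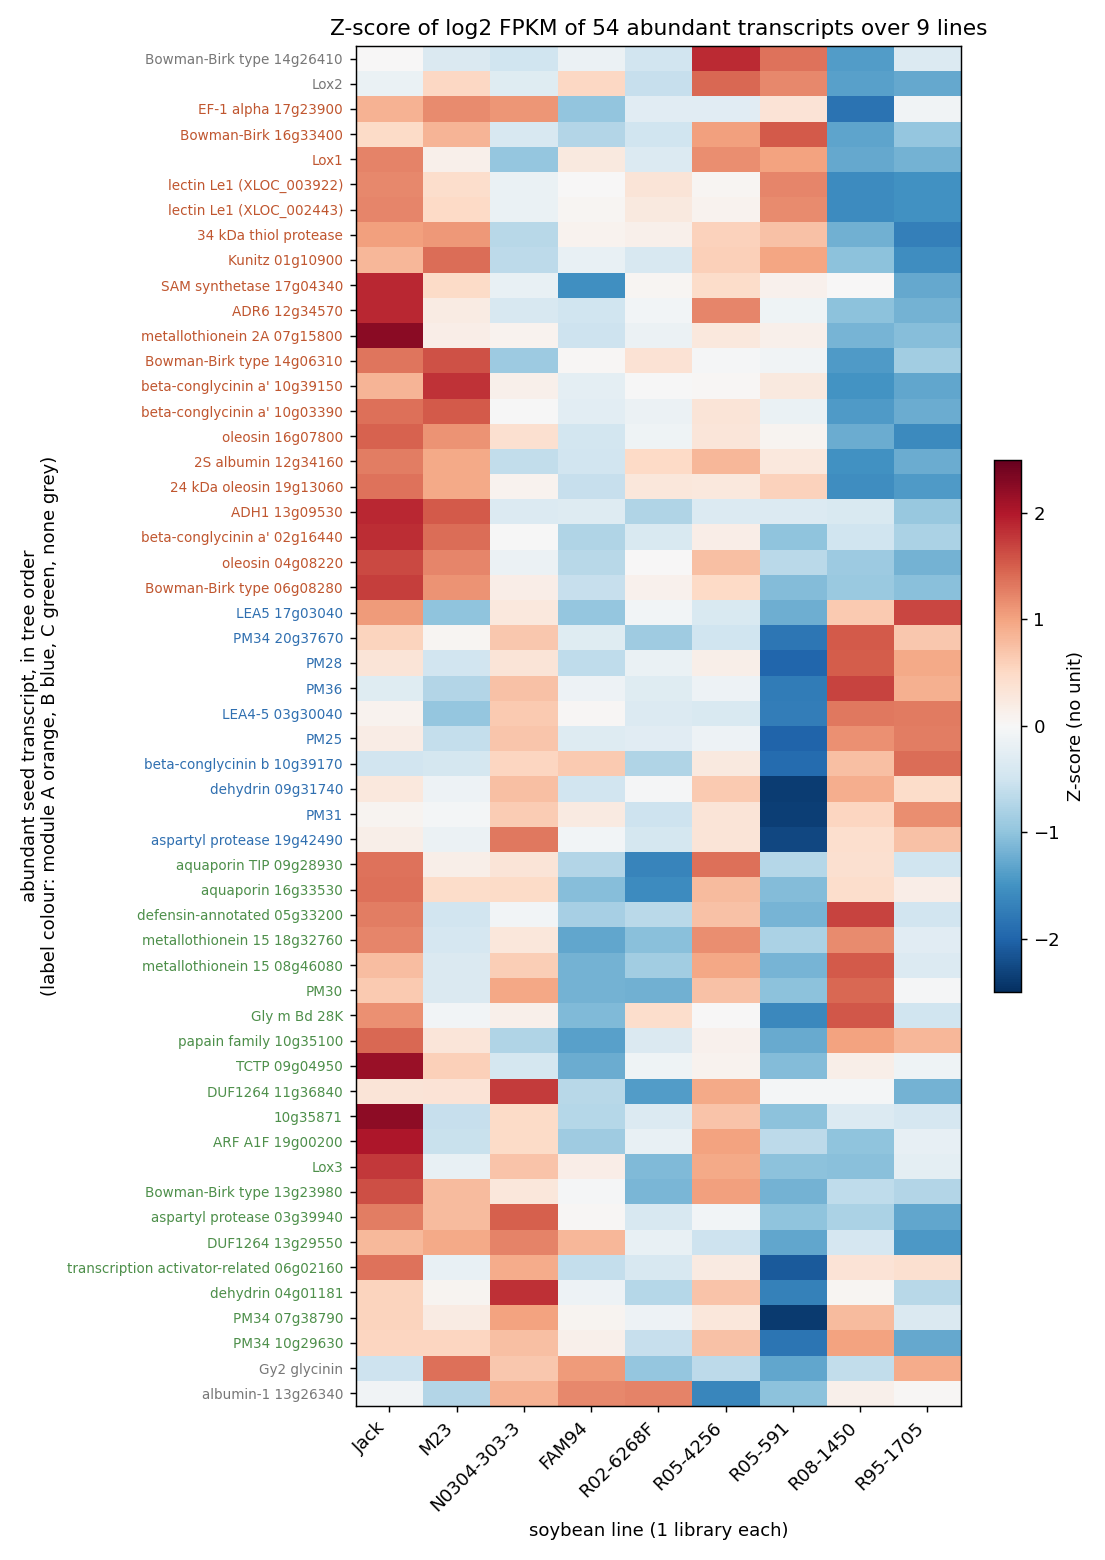
Z-scores of log2 FPKM (colour, no unit) of the 54 abundant transcripts (vertical axis, in the order of the correlation tree) in the 9 lines (horizontal axis, 1 library each); label colours mark modules A, B and C, and grey labels mark transcripts in none. The block of module A is blue in R08-1450 and R95-1705, that of module B is dark blue in R05-591 and red in R08-1450 and R95-1705, and that of module C is red in Jack and blue in R05-591.

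Jack held the largest share of the highest values and R05-591 the largest share of the lowest. Of the 54 transcripts, 21 (38.9%) had their highest Z-score in Jack, against 13.7% of all genes, and none had its lowest there, against 16.7% of all genes. In R05-591, 21 transcripts (38.9%) had their lowest Z-score, against 13.8% of all genes. The median Z-score of the 54 was 1.17 in Jack and -1.02 in R05-591, against -0.10 and -0.09 over all genes in these lines. The remaining lowest values were mainly in R08-1450 (14 transcripts), R95-1705 (8), FAM94 (5) and R02-6268F (5), and the remaining highest values in R08-1450 (10), M23 (7) and N0304-303-3 (6). R08-1450 thus held many highest and many lowest values at once, as it did over all genes, where 23.8% had their highest and 20.8% their lowest Z-score in that line.

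The tilt towards Jack and away from R05-591 was also present at the next level of abundance. The 549 genes with a mean from 100 to 1000 FPKM had a median Z-score of 1.11 in Jack and -0.71 in R05-591, and 47.0% of them were highest in Jack and 34.2% lowest in R05-591. When the line medians of these 549 genes were subtracted and the Z-scores standardized again, a setting chosen after the data were seen, 3 of the 54 were highest in Jack and 10 lowest in R05-591. The cause of these line medians was not tested.

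**Figure D2:**
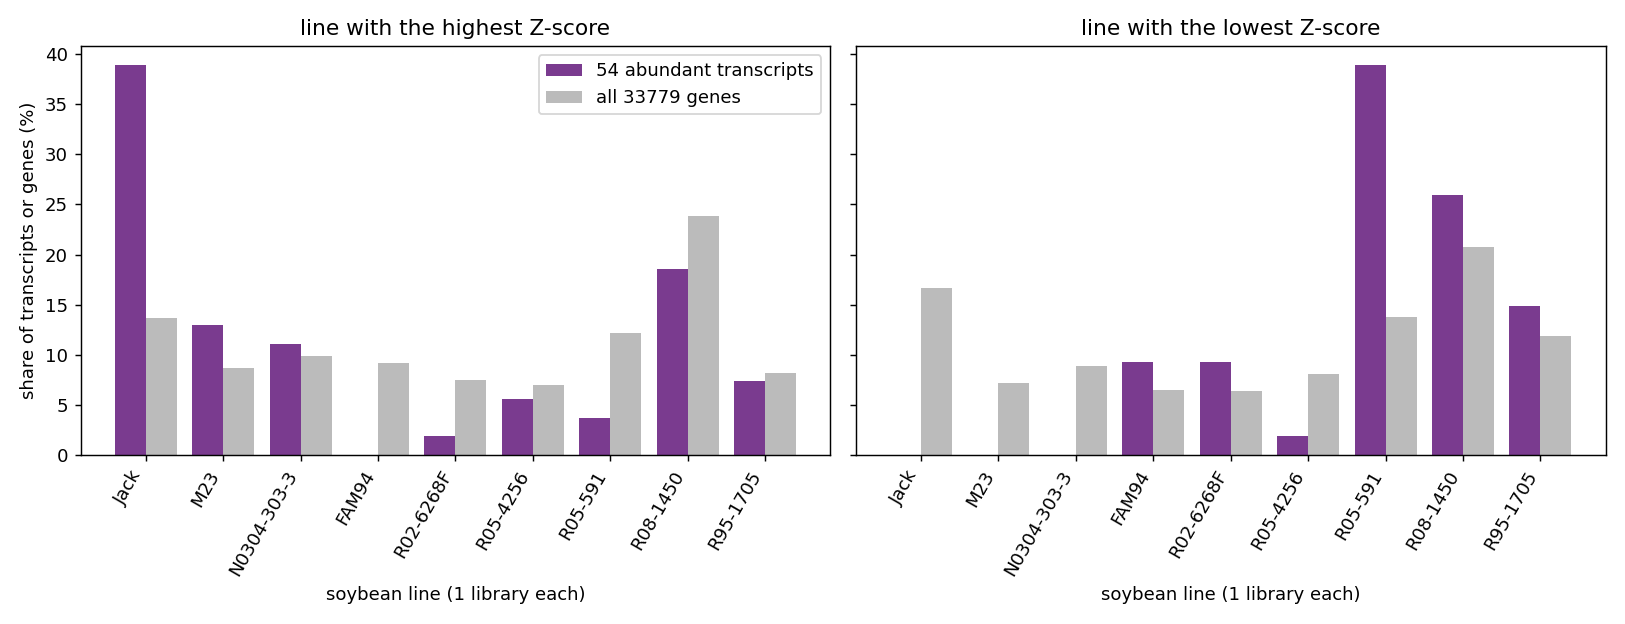
Share (%, vertical axis) of the 54 abundant transcripts (purple) and of all 33779 genes (grey) with their highest (left panel) or lowest (right panel) Z-score in each line (horizontal axis, 1 library each). Jack held 38.9% of the highest values of the abundant transcripts and none of their lowest, and R05-591 held 38.9% of the lowest.

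The cutoff that the study used for a transcript to stand out in a line, a Z-score 2 or more standard deviations from 0, was passed by 9 of the 54 transcripts (16.7%), against 23.8% of all genes. The share among the abundant transcripts was thus not above that of the table. The 9 fell into a Jack group and an R05-591 group. Without R05-591, and with the Z-scores standardized again over 8 lines, 4 transcripts passed the cutoff, and leaving out any other line gave 6 to 10.

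In Jack, 4 transcripts had a Z-score of at least 2, against 2.05% of all genes in that line. Metallothionein 2A (Glyma07g15800, XLOC_016823, chromosome 7, 15490518 to 15491924, mean 4694 FPKM), a small cysteine-rich metal-binding protein, had Z-scores of 2.26 in Jack, 0.16 in M23, 0.08 in N0304-303-3, -0.53 in FAM94, -0.14 in R02-6268F, 0.27 in R05-4256, 0.13 in R05-591, -1.17 in R08-1450 and -1.06 in R95-1705. The uncharacterized Glyma10g35871 had 2.23 in Jack, -0.58 in M23, 0.47 in N0304-303-3, -0.72 in FAM94, -0.34 in R02-6268F, 0.71 in R05-4256, -1.02 in R05-591, -0.34 in R08-1450 and -0.41 in R95-1705. In both, all lines other than Jack were below 1. The translationally controlled tumor protein gene (Glyma09g04950, XLOC_022694, chromosome 9, 3722849 to 3732572, mean 1364 FPKM) had 2.16 in Jack, 0.59 in M23, -0.43 in N0304-303-3, -1.24 in FAM94, -0.11 in R02-6268F, 0.09 in R05-4256, -1.09 in R05-591, 0.15 in R08-1450 and -0.11 in R95-1705. The ADP-ribosylation factor A1F gene (Glyma19g00200, XLOC_050873, chromosome 19, 16182 to 20526, mean 2062 FPKM), which encodes a small GTPase of vesicle transport, had 2.03 in Jack, -0.56 in M23, 0.47 in N0304-303-3, -0.90 in FAM94, -0.19 in R02-6268F, 1.01 in R05-4256, -0.66 in R05-591, -1.01 in R08-1450 and -0.20 in R95-1705. The tumor protein transcript was lowest in FAM94 (-1.24) and the ADP-ribosylation factor transcript in R08-1450 (-1.01).

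In R05-591, 5 transcripts had a Z-score of at most -2, against 0.764% of all genes in that line. The seed maturation protein gene PM34 on chromosome 7 (Glyma07g38790, XLOC_017455, 43464738 to 43466131, mean 3180 FPKM) had 0.55 in Jack, 0.20 in M23, 1.01 in N0304-303-3, 0.06 in FAM94, -0.13 in R02-6268F, 0.28 in R05-4256, -2.40 in R05-591, 0.79 in R08-1450 and -0.37 in R95-1705. The dehydrin gene Glyma09g31740 (XLOC_024727, chromosome 9, 38382761 to 38383979, mean 3341 FPKM) had 0.26 in Jack, -0.13 in M23, 0.75 in N0304-303-3, -0.48 in FAM94, -0.04 in R02-6268F, 0.65 in R05-4256, -2.38 in R05-591, 0.90 in R08-1450 and 0.47 in R95-1705. PM31 (Glyma02g08400, XLOC_002754, chromosome 2, 6593609 to 6595501, mean 6478 FPKM), the most abundant maturation transcript and annotated as a small heat shock protein-like chaperone, had 0.06 in Jack, -0.05 in M23, 0.63 in N0304-303-3, 0.23 in FAM94, -0.53 in R02-6268F, 0.32 in R05-4256, -2.36 in R05-591, 0.54 in R08-1450 and 1.16 in R95-1705. These maturation transcripts had R05-591 far below the other lines, which lay between -0.53 and 1.16. The aspartyl protease gene Glyma19g42490 (XLOC_051957, chromosome 19, 48434943 to 48436347, mean 3665 FPKM) had 0.15 in Jack, -0.14 in M23, 1.31 in N0304-303-3, -0.07 in FAM94, -0.44 in R02-6268F, 0.33 in R05-4256, -2.28 in R05-591, 0.43 in R08-1450 and 0.73 in R95-1705. Glyma06g02160, annotated as transcription activator-related (XLOC_013052, chromosome 6, 1428944 to 1429730, mean 1131 FPKM), had 1.36 in Jack, -0.19 in M23, 0.94 in N0304-303-3, -0.59 in FAM94, -0.39 in R02-6268F, 0.23 in R05-4256, -2.10 in R05-591, 0.34 in R08-1450 and 0.39 in R95-1705. The choice by a Z-score of at most -2 makes R05-591 the lowest line in each of these transcripts. The highest line was N0304-303-3, R08-1450, R95-1705 or Jack.

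Pearson's r between Z-scores over the 9 lines was used to ask which transcripts varied together. Among the 1431 pairs of abundant transcripts, 160 (11.2%) had an r of at least 0.8, against 1.94% of all gene pairs in the table. With the line medians of the 549 less abundant genes subtracted, 109 of the 1431 pairs did. The share over all gene pairs was not computed for that setting. An r of at most -0.8 was seen in 14 pairs (0.978%), against 1.73% of all gene pairs. The count of negative pairs moved with single lines. It was 36 without Jack, 28 without R05-4256, 22 without R02-6268F, 22 without R05-591, 7 without R08-1450 and 7 without R95-1705. With the line medians of the 549 less abundant genes subtracted it was 59 (4.12%). The 1.73% of all gene pairs is without that subtraction, so these shares cannot be set against each other. As deposited, a larger share of the pairs of abundant transcripts thus varied in the same direction, and 71.9% of their pairs had a positive r, against 50% of all pairs. All these values come from the same 9 libraries, so a line that stands apart enters every r, and they are given as a description without a p-value. The first principal component over the lines held 39.8% of the variance of the 54 transcripts and the next one 34.9%, against 33.4% and 16.4% over all genes.

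**Figure D3:**
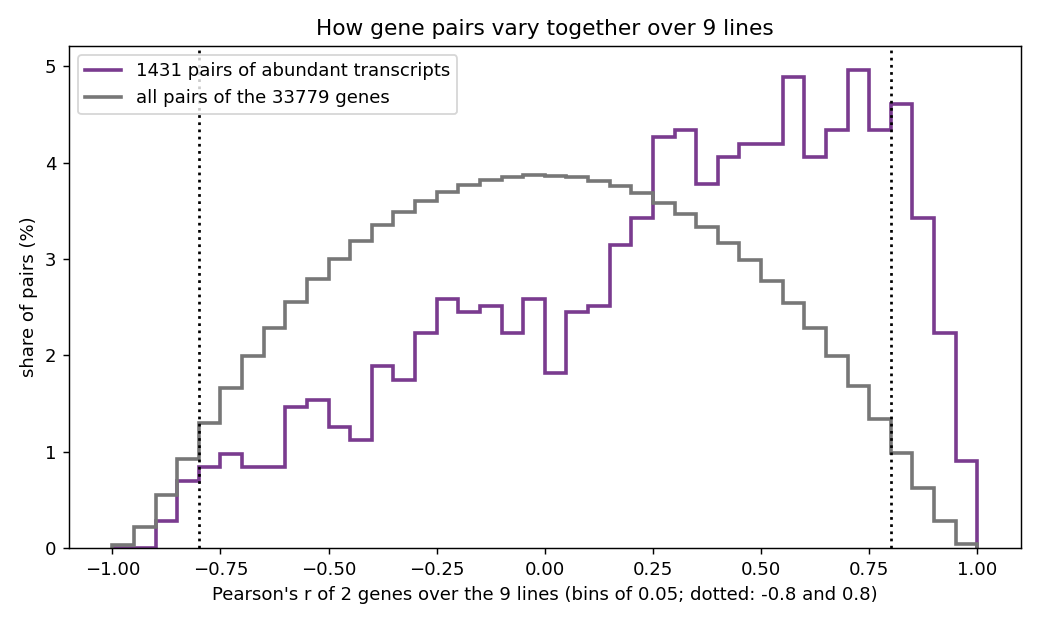
Share of pairs (%, vertical axis) by Pearson's r over the 9 lines (horizontal axis, bins of 0.05) for the 1431 pairs of abundant transcripts (purple) and for all pairs of the 33779 genes (grey); dotted lines mark -0.8 and 0.8. The curve of the abundant transcripts lies to the right, with 11.2% of pairs at 0.8 or more, against 1.94% of all pairs.

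Average linkage on 1 - r, with the tree divided at a distance of 0.5, placed 50 of the 54 transcripts in 3 modules of at least 5 members, called A, B and C here. Since the modules were made from the Z-scores, their profiles are described and not tested. With complete linkage 31.5% of the pairs within a module stayed together, so the borders of the modules were not sharp. Module B was split the least and module C the most. At least 9 of the 10 rows of module B stayed in 1 module under each setting run (Spearman's rho, both subtractions of line medians, complete linkage, tree distances of 0.4 and 0.6, and lines left out). Of the 20 rows of module C at most 6 stayed in 1 module with complete linkage, 6 with the line medians of the 549 less abundant genes subtracted and 8 without FAM94. Under these settings no row of module A was placed in a module with a row of module B, except for 10 of 200 pairs without R95-1705. Module B did not always stay apart from module C. With the tree divided at 0.6 only 2 modules of at least 5 members formed, and modules B and C were joined.

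Module A held 20 rows with 14% of the summed FPKM, and was high in Jack and M23 and low in R08-1450 and R95-1705. Its mean Z-score was 1.38 in Jack and 0.98 in M23, with 20 of 20 rows above 0 in both. It was -1.17 in R08-1450, with 19 of 20 rows below 0, and -1.18 in R95-1705, with 20 of 20 below 0. The other lines had mean Z-scores between -0.42 (FAM94) and 0.40 (R05-4256). The rows came from 13 chromosomes and their median pairwise r was 0.78.

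Most storage protein, inhibitor and oleosin rows were in this module. It included 6 of the 10 storage protein rows, namely 3 genes for the α′ subunit of β-conglycinin, a 2S albumin and the pair of Le1 rows. It also included 4 of the 6 protease inhibitor rows, all 3 oleosin rows, Lox1 and the 34 kDa thiol protease, a papain-like protein known as a seed allergen. The remaining rows were ADR6 (a BURP domain protein), metallothionein 2A, alcohol dehydrogenase 1, S-adenosylmethionine synthetase and elongation factor 1-alpha.

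The 24 kDa oleosin gene Glyma19g13060 (XLOC_049864, chromosome 19, 16319848 to 16320898, mean 6719 FPKM) was closest to the module A mean, with an r of 0.97. Its Z-scores were 1.36 in Jack, 0.95 in M23, 0.09 in N0304-303-3, -0.57 in FAM94, 0.29 in R02-6268F, 0.26 in R05-4256, 0.58 in R05-591, -1.55 in R08-1450 and -1.42 in R95-1705. The elongation factor 1-alpha gene Glyma17g23900 (XLOC_044883, chromosome 17, 24100696 to 24103526, mean 2261 FPKM), which delivers aminoacyl-tRNA to the ribosome, was farthest from it, with an r of 0.69. It had Z-scores of 0.86 in Jack, 1.18 in M23, 1.10 in N0304-303-3, -0.98 in FAM94, -0.28 in R02-6268F, -0.29 in R05-4256, 0.34 in R05-591, -1.85 in R08-1450 and -0.09 in R95-1705. The oleosin was low in both R08-1450 and R95-1705, whereas the elongation factor was low in R08-1450 and near 0 in R95-1705.

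The most abundant inhibitor and protease transcripts belonged to the same module. The Bowman-Birk gene Glyma16g33400 had Z-scores of 0.48 in Jack, 0.85 in M23, -0.40 in N0304-303-3, -0.74 in FAM94, -0.49 in R02-6268F, 1.03 in R05-4256, 1.54 in R05-591, -1.31 in R08-1450 and -0.97 in R95-1705. The 34 kDa thiol protease gene had 1.03 in Jack, 1.08 in M23, -0.70 in N0304-303-3, 0.09 in FAM94, 0.12 in R02-6268F, 0.57 in R05-4256, 0.74 in R05-591, -1.21 in R08-1450 and -1.71 in R95-1705. For the inhibitor the highest line was R05-591, while the protease was about equally high in M23 and Jack. The 34 kDa protease varied most closely with the Kunitz inhibitor gene Glyma01g10900, at an r of 0.96, and that inhibitor had an r of 0.89 with Glyma16g33400.

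Within module A the 3 oleosins of the 54 varied closely together. An oleosin row set aside by the rule was not close to this module, as given below. Glyma16g07800 and Glyma19g13060 had an r of 0.96, Glyma16g07800 and Glyma04g08220 an r of 0.91, and Glyma04g08220 and Glyma19g13060 an r of 0.84. Apart from the Le1 rows, the highest r of any pair of the 54 was 0.98, between the oleosin gene Glyma04g08220 and the Bowman-Birk type gene Glyma06g08280. The α′ subunit gene Glyma10g03390 had an r of 0.96 with the oleosin gene Glyma16g07800, which paired a storage protein with an oil body protein. The 3 α′ subunit genes had r of 0.72 to 0.96 among themselves.

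Module B held 10 rows with 3.30% of the summed FPKM, and was lowest in R05-591 and high in R08-1450 and R95-1705. All 10 had their lowest Z-score in R05-591, from -2.38 to -1.23 with a mean of -1.94. The mean Z-score was 1.05 in both R08-1450 and R95-1705, with 10 of 10 above 0 in each, and 0.66 in N0304-303-3, again with 10 of 10 above 0. All 10 were below 0 in R02-6268F (mean -0.38). The rows came from 8 chromosomes, and with a median pairwise r of 0.85 this was the tightest of the modules.

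Seed maturation transcripts made up 8 of the 10 rows, namely PM25, PM28, PM31, PM36, the PM34 gene on chromosome 20, LEA4-5, LEA5 and the dehydrin gene Glyma09g31740. The others were the aspartyl protease gene Glyma19g42490 and the gene for the β subunit of β-conglycinin, Glyma10g39170. PM25 (Glyma20g28550, XLOC_052878, chromosome 20, 37503338 to 37504773, mean 1162 FPKM) was closest to the module mean, with an r of 0.99. Its Z-scores were 0.19 in Jack, -0.60 in M23, 0.70 in N0304-303-3, -0.32 in FAM94, -0.28 in R02-6268F, -0.12 in R05-4256, -1.99 in R05-591, 1.15 in R08-1450 and 1.27 in R95-1705. LEA5 (Glyma17g03040, XLOC_044048, chromosome 17, 2031605 to 2032478, mean 2868 FPKM), a desiccation protective protein, was farthest, with an r of 0.79. It had 1.05 in Jack, -1.0 in M23, 0.26 in N0304-303-3, -0.96 in FAM94, -0.07 in R02-6268F, -0.39 in R05-4256, -1.23 in R05-591, 0.66 in R08-1450 and 1.67 in R95-1705. LEA5 had a higher Z-score than PM25 in Jack and a less low one in R05-591.

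**Figure D4:**
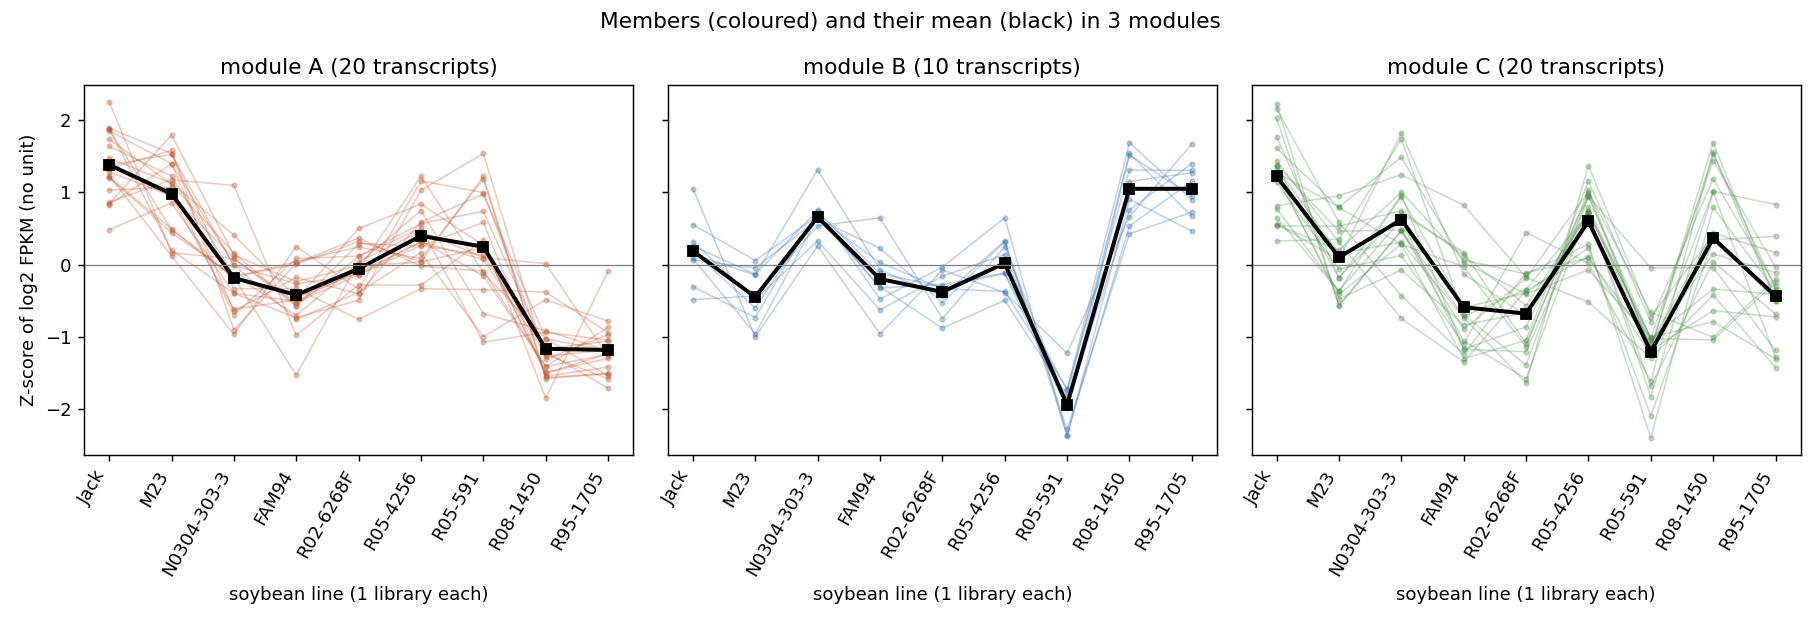
Z-scores of log2 FPKM (vertical axis, no unit) of the transcripts of modules A, B and C (coloured lines, 1 per transcript) and their mean (black) in the 9 lines (horizontal axis, 1 library each). The mean of module A is -1.17 in R08-1450 and -1.18 in R95-1705, that of module B is -1.94 in R05-591, and that of module C is 1.22 in Jack and -1.21 in R05-591.

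As deposited, modules A and B tended to run in opposite directions. Of the 200 pairs between them, 180 had a negative r, and the module means had an r of -0.49 (Spearman's rho -0.57). The r of the means was 0.01 without both R08-1450 and R95-1705, but -0.66 without Jack and -0.66 without R05-591. With the line medians of the 549 less abundant genes subtracted, R05-591 also had opposite means, 1.05 in module A with 18 of 20 rows above 0 and -1.28 in module B with 0 of 10 above 0. The lowest r of all pairs, -0.88 (rho -0.93), was between the Le1 row XLOC_003922 and PM36. Without both R08-1450 and R95-1705 it was -0.75. Le1 (Glyma02g01590, chromosome 2, 1124342 to 1125876, mean 3969 FPKM in this row) encodes seed lectin and had Z-scores of 1.21 in Jack, 0.44 in M23, -0.17 in N0304-303-3, 0.00 in FAM94, 0.32 in R02-6268F, 0.04 in R05-4256, 1.22 in R05-591, -1.56 in R08-1450 and -1.51 in R95-1705. PM36 (Glyma17g03600, XLOC_045450, chromosome 17, 2408274 to 2409971, mean 1111 FPKM) had -0.30 in Jack, -0.73 in M23, 0.74 in N0304-303-3, -0.12 in FAM94, -0.31 in R02-6268F, -0.12 in R05-4256, -1.74 in R05-591, 1.69 in R08-1450 and 0.90 in R95-1705. The lectin and PM36 had opposite signs in all 9 lines, with both near 0 in FAM94 and R05-4256.

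Module C held 20 rows with 10.1% of the summed FPKM, and was high in Jack and low in R05-591 and R02-6268F. Its mean Z-score was 1.22 in Jack, with 20 of 20 rows above 0, and -1.21 in R05-591, with 20 of 20 below 0. In R02-6268F the mean was -0.68 and 19 of 20 rows were below 0, whereas in R05-4256 it was 0.60 and 18 of 20 rows were above 0. In R08-1450 the rows were split, with 13 above and 7 below 0. The median pairwise r was 0.62, the lowest of the modules, and the lowest r of a pair was -0.07.

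The functions in module C were mixed. It held Lox3, both aquaporin genes, both family 15 metallothioneins, 4 maturation rows (PM30, the dehydrin gene Glyma04g01181 and the PM34 genes on chromosomes 7 and 10), the allergen gene Gly m Bd 28K, the Bowman-Birk type gene Glyma13g23980, the aspartyl protease gene Glyma03g39940 and the papain family gene Glyma10g35100. It also held all 3 uncharacterized rows, the tentative defensin, Glyma06g02160, the ADP-ribosylation factor A1F and the translationally controlled tumor protein. The most abundant was Lox3, which had Z-scores of 1.77 in Jack, -0.18 in M23, 0.71 in N0304-303-3, 0.17 in FAM94, -1.10 in R02-6268F, 0.94 in R05-4256, -1.02 in R05-591, -1.04 in R08-1450 and -0.25 in R95-1705. The next, the tentative defensin gene Glyma05g33200, had 1.28 in Jack, -0.48 in M23, -0.07 in N0304-303-3, -0.84 in FAM94, -0.66 in R02-6268F, 0.73 in R05-4256, -1.16 in R05-591, 1.69 in R08-1450 and -0.49 in R95-1705. Both were high in Jack and low in R05-591, but in R08-1450 Lox3 was low and the tentative defensin high.

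The aquaporin gene Glyma16g33530 (XLOC_043815, chromosome 16, 36421938 to 36424432, mean 1207 FPKM), which encodes a water channel, was closest to the module C mean, with an r of 0.90. Its Z-scores were 1.38 in Jack, 0.46 in M23, 0.48 in N0304-303-3, -1.06 in FAM94, -1.58 in R02-6268F, 0.79 in R05-4256, -1.09 in R05-591, 0.44 in R08-1450 and 0.17 in R95-1705. The more abundant aquaporin gene, Glyma09g28930 (XLOC_024606, chromosome 9, 35913471 to 35915604, mean 1991 FPKM), annotated as a tonoplast intrinsic protein, had 1.35 in Jack, 0.15 in M23, 0.31 in N0304-303-3, -0.73 in FAM94, -1.64 in R02-6268F, 1.37 in R05-4256, -0.72 in R05-591, 0.41 in R08-1450 and -0.50 in R95-1705. The aquaporin genes had an r of 0.93, and R02-6268F was the lowest line in both. Glyma13g29550, a gene of unknown function with a DUF1264 domain (XLOC_036035, chromosome 13, 32451231 to 32452886, mean 1305 FPKM), was farthest from the mean, with an r of 0.52. It had 0.82 in Jack, 0.96 in M23, 1.24 in N0304-303-3, 0.82 in FAM94, -0.18 in R02-6268F, -0.52 in R05-4256, -1.30 in R05-591, -0.42 in R08-1450 and -1.43 in R95-1705. Unlike most of the module it was above 0 in FAM94 and had its lowest value in R95-1705.

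A pair of highly similar profiles in module C joined a metallothionein with a LEA protein. The family 15 metallothionein gene Glyma08g46080 and PM30 had an r of 0.97. With the other family 15 gene, Glyma18g32760, the r of Glyma08g46080 was 0.96. The metallothionein 2A gene of module A was less close to these as deposited, with r of 0.14 and 0.33, but these values moved with single lines. The first was between -0.20 (without Jack) and 0.54 (without R08-1450) and the second between -0.11 and 0.66 with the same lines left out.

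Module C lay between the others. Its mean had an r of 0.37 with that of module A and 0.57 with that of module B, and without Jack the first was 0.03, while without R05-591 the second was 0.21. The r with module A was 0.53 without R05-591, and that with module B was 0.65 without Jack. Without both R08-1450 and R95-1705 the r was 0.56 with module A and 0.79 with module B. The other lines were not left out for these values.

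The module profiles depended on the reference level, with examples in Jack, R05-591, R08-1450, FAM94 and M23. After subtraction of the line medians of the 549 genes between 100 and 1000 FPKM, the mean of module B in Jack was -0.93 with 0 of 10 rows above 0, against 0.19 with 8 of 10 above 0 as deposited. Module A then had a mean of 0.41 in Jack with 15 of 20 rows above 0, and module C a mean of 0.24 with 13 of 20 above 0. In R05-591 the mean of module A was 1.05 with 18 of 20 rows above 0, against 0.25 with 13 of 20 as deposited, and that of module C was -0.66, against -1.21 as deposited. In R08-1450 the mean of module C was 0.90, against 0.37 as deposited. The sign turned in FAM94 for module B, with a mean of 0.25 and 7 of 10 rows above 0, against -0.20 and 3 of 10 as deposited. It also turned in M23 for module C, with a mean of -0.30 and 7 of 20 rows above 0, against 0.10 and 11 of 20 as deposited. The low values of module B in R05-591 (mean -1.28, 0 of 10 above 0) and those of module A in R95-1705 (mean -1.38, 0 of 20 above 0) and R08-1450 (mean -0.90, 2 of 20 above 0) kept their sign.

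The remaining 4 transcripts belonged to no module. Gy2 had Z-scores of -0.51 in Jack, 1.37 in M23, 0.67 in N0304-303-3, 1.07 in FAM94, -0.96 in R02-6268F, -0.65 in R05-4256, -1.31 in R05-591, -0.61 in R08-1450 and 0.93 in R95-1705. Albumin-1 (Glyma13g26340, XLOC_034056, chromosome 13, 29542356 to 29550215, mean 7042 FPKM), also known as leginsulin, had -0.08 in Jack, -0.72 in M23, 0.87 in N0304-303-3, 1.21 in FAM94, 1.23 in R02-6268F, -1.64 in R05-4256, -1.02 in R05-591, 0.12 in R08-1450 and 0.04 in R95-1705. The most abundant transcript of the set was thus high in M23 and FAM94 and lowest in R05-591, and albumin-1 was high in R02-6268F and FAM94 and lowest in R05-4256. Lox2 and the Bowman-Birk type gene Glyma14g26410 were the others. Both were highest in R05-4256 (1.44 and 1.86) and lowest in R08-1450 (-1.36 and -1.40).

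Grouped by function, the maturation transcripts had the highest median r of the classes of more than 3 rows. All 12 were below 0 in R05-591 and in R02-6268F, and all 12 were above 0 in R08-1450 and in N0304-303-3. Of all abundant transcripts, these 12 included, 27.8% were above 0 in R05-591, 20.4% in R02-6268F, 46.3% in R08-1450 and 64.8% in N0304-303-3. Over all genes these shares were 47%, 51.4%, 50.5% and 49.9%. Most abundant transcripts were thus below 0 in R05-591 and R02-6268F, not only those of maturation. With the line medians of the 549 less abundant genes subtracted, 12 maturation transcripts were below 0 in R05-591 and 9 in R02-6268F. Above 0 were then 12 in R08-1450 and 11 in N0304-303-3. The sign of most rows turned in Jack, and that of some rows in FAM94. Above 0 were 0 of 12 in Jack, against 11 of 12 as deposited, and 8 of 12 in FAM94, against 4 of 12 as deposited. Their median pairwise r was 0.74 (pairs from 0.08 to 0.97), against 0.61 for the 6 lipid rows, 0.55 for the 6 protease inhibitor rows, 0.59 for the 4 housekeeping rows, 0.33 for the 4 rows of other function, 0.23 for the 4 protease rows and 0.14 for the 10 storage protein rows. The pair LEA4-5 (Glyma03g30040) and PM25 had an r of 0.97, and PM28 and PM25 an r of 0.96. With any 1 line left out the first was at least 0.96 and the second at least 0.92. Other maturation pairs leaned on R05-591. Without it, the r of PM31 with the PM34 gene on chromosome 7 fell from 0.81 to 0.08. The r of that PM34 gene with PM25 fell from 0.74 to 0.22. The class medians were not computed without R05-591. Storage proteins had r from -0.84 to 0.999, with the lowest between Le1 and the β subunit of β-conglycinin.

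Related genes did not always share a profile. The α′ and β subunit genes of β-conglycinin on chromosome 10, Glyma10g39150 (XLOC_026484, 46888028 to 46890857, mean 8266 FPKM) and Glyma10g39170 (XLOC_026486, 46900406 to 46902990, mean 1396 FPKM), lie 9549 bp apart and had an r of -0.58. The α′ gene had Z-scores of 0.84 in Jack, 1.8 in M23, 0.13 in N0304-303-3, -0.24 in FAM94, -0.01 in R02-6268F, 0.03 in R05-4256, 0.24 in R05-591, -1.50 in R08-1450 and -1.30 in R95-1705. The β gene had -0.49 in Jack, -0.43 in M23, 0.54 in N0304-303-3, 0.65 in FAM94, -0.75 in R02-6268F, 0.25 in R05-4256, -1.93 in R05-591, 0.76 in R08-1450 and 1.4 in R95-1705. Thus in R08-1450 and R95-1705 the α′ gene was low where the β gene was high, and without these lines the r was -0.23. The neighbouring lipoxygenase genes Lox1 (Glyma13g42320, XLOC_034798, 42328961 to 42333252, mean 2591 FPKM) and Lox2 (Glyma13g42310, XLOC_034797, 42321509 to 42325985, mean 2378 FPKM) lie 2976 bp apart on chromosome 13 and had an r of 0.82.

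Lox1 had Z-scores of 1.23 in Jack, 0.12 in M23, -0.97 in N0304-303-3, 0.25 in FAM94, -0.34 in R02-6268F, 1.16 in R05-4256, 1.0 in R05-591, -1.27 in R08-1450 and -1.18 in R95-1705. Lox2 had -0.16 in Jack, 0.52 in M23, -0.30 in N0304-303-3, 0.52 in FAM94, -0.58 in R02-6268F, 1.44 in R05-4256, 1.20 in R05-591, -1.36 in R08-1450 and -1.28 in R95-1705. They differed most in Jack, which was high in Lox1 and slightly below 0 in Lox2. Lox3 on chromosome 15 had an r of 0.45 with Lox1, which was 0.21 without Jack and 0.69 without R05-591. Its r of 0.25 with Lox2 was 0.07 without R08-1450 and 0.51 without R05-591. Of the PM34 genes, those on chromosomes 7 and 10 had an r of 0.89, and their r with the gene on chromosome 20 was 0.79 and 0.62. The value of 0.79 was 0.54 without R05-591, and that of 0.62 was 0.28 without R05-591 and 0.87 without R95-1705. The aspartyl protease genes Glyma03g39940 and Glyma19g42490 had an r of 0.40, which was 0.16 without R05-591, 0.64 without R95-1705 and 0.81 without both R08-1450 and R95-1705. Reads with more than 1 location were removed by the authors, so values of genes with near-identical copies are uncertain where only part of a transcript is unique.

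The span of 8 of the 54 rows was also given to another row of the table, which leaves the share of reads of each row uncertain. Among them were the Le1 rows, whose Z-scores had an r of 0.999 and which belong to 1 gene. Both were kept in the counts of rows and pairs given here. With 1 Le1 row, 152 pairs had an r of at least 0.8 and 11 an r of at most -0.8. The other rows with a shared span were PM28 (Glyma08g18400), the translationally controlled tumor protein, albumin-1, Glyma06g02160, Glyma10g35871 and Glyma11g36840.

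Less abundant genes of the same classes were taken from the annotated list of the 100 most abundant transcripts, which holds 35 genes below 1000 FPKM, 16 of them in a class examined. All 6 maturation genes among them had an r of at least 0.8 with the mean of module B (0.83 to 0.99), against 4.45% of the 33725 genes outside the 54 transcripts and 13.7% (75) of the 549 genes with a mean from 100 to 1000 FPKM. All 6 had their lowest Z-score in R05-591, and they were highest in R95-1705 (4 genes) or R08-1450 (2). The r of these 6 genes with module B was not computed without R05-591. The closest was Glyma10g03310 (mean 770 FPKM), with Z-scores of 0.24 in Jack, -0.62 in M23, 0.67 in N0304-303-3, 0.05 in FAM94, -0.47 in R02-6268F, -0.06 in R05-4256, -2.08 in R05-591, 1.13 in R08-1450 and 1.14 in R95-1705. Both aquaporin genes (r of 0.82 and 0.84), the metallothionein 2A gene Glyma18g39690 (r of 0.94), 3 of 5 translation genes and 1 of 2 oil body genes had an r of at least 0.8 with the mean of module A, against 4.91% of the 33725 genes and 15.8% (87) of the 549. The oil body gene that did not, Glyma20g33850, was lowest in Jack at -1.79. No gene of these classes reached 0.8 with module C, which 0.759% of the 33725 genes and 3.46% (19) of the 549 did.

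**Figure D5:**
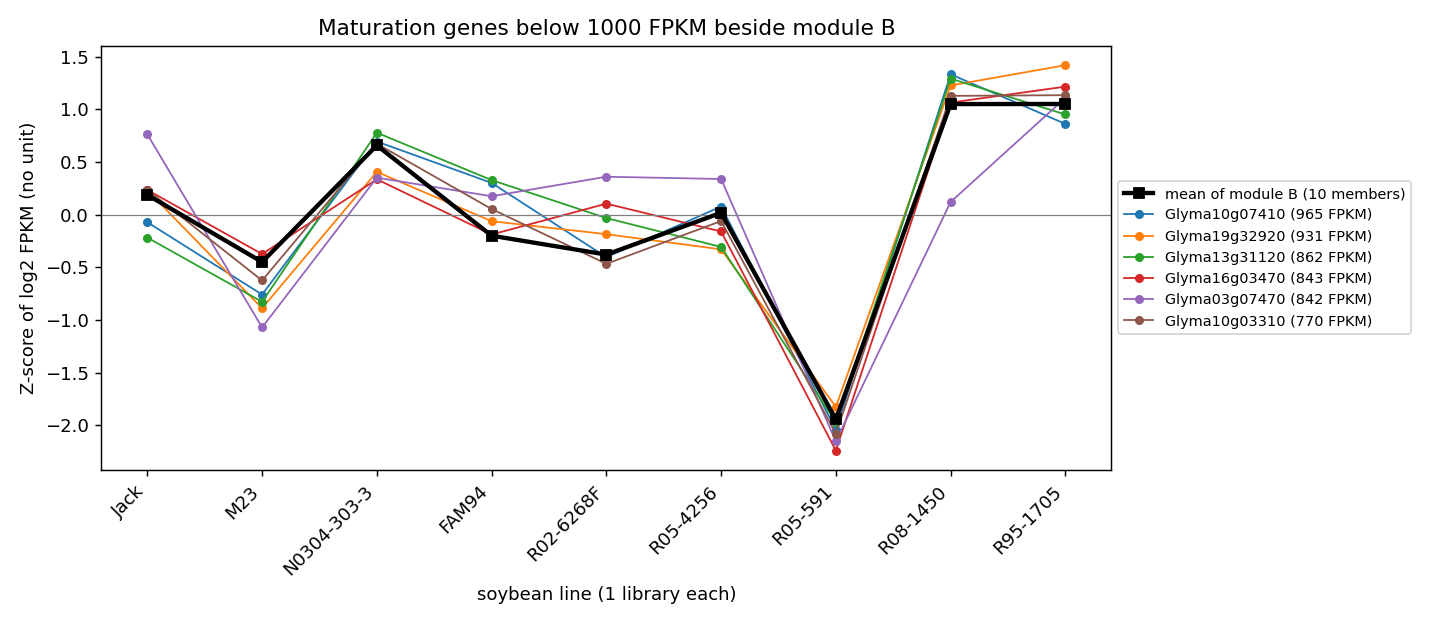
Z-scores of log2 FPKM (vertical axis, no unit) in the 9 lines (horizontal axis, 1 library each) of 6 maturation genes with a mean below 1000 FPKM (coloured, mean FPKM in the legend) and of the module B mean (black). All 6 are lowest in R05-591, and their r with the module B mean is 0.83 to 0.99.

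Of the 8 rows set aside, 4 had an r of at least 0.8 with a module mean. The 2S albumin gene Glyma13g36400 and the Kunitz inhibitor gene Glyma08g45531 had r of 0.92 and 0.93 with the mean of module A, the fatty acid desaturase gene FAD2-1B an r of 0.82 with it, and the caleosin gene Glyma10g33350 an r of 0.98 with the mean of module B. The glycinin genes Gy1, Gy4 and Gy5 had r of 0.28, 0.21 and 0.57 with module A, and like Gy2 they were highest in M23. The oleosin gene Glyma05g08880 had r of 0.08 with module A, 0.65 with module B and 0.67 with module C. It was lowest in R05-591 at -2.08, unlike the oleosins of module A. At the threshold, the least abundant of the 54 were PM36 at 1111 FPKM, Glyma06g02160 at 1131 FPKM and Glyma11g36840 at 1134 FPKM. Just below it were a cationic peroxidase gene (Glyma17g01720) at 987 FPKM and a ribosomal protein gene (Glyma10g40461) at 983 FPKM.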

How the data were processed

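Whole seeds of 9 soybean lines were sequenced with 1 library per line. The authors used CASAVA 1.8.2, aligned the trimmed reads with TopHat 1.4.0 and Bowtie 0.12.8 to the soybean genome (annotation Gmax_189, Phytozome 9.1), kept reads with a single location, and obtained FPKM from Cufflinks and Cuffdiff 2.1.1. They dropped organelle sequences and weakly expressed genes (mean below 0.5 FPKM, unless seen in all lines). The deposited mean FPKM is the authors' average over the 9 lines. Each deposited score per line is a Z-score, made by the authors by standardizing log2 FPKM over the lines. Row means of 0 and row standard deviations of 1 were checked. The table holds neither counts nor FPKM per line, so the depth behind a value cannot be computed from it, and no test between lines was made.

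Rows were matched by mean FPKM to the 100 gene models named in the supplementary list (100 matched, tolerance 0.001%), from which only names were taken. Classes came from the annotation words. Pearson's r over the 9 lines was computed for all gene pairs, and modules were formed by average linkage on 1 - r, divided at 0.5, with at least 5 members. The transcripts and lists were chosen with earlier results of these data known. Named are the most abundant member of each class, every member past a Z-score of 2 in size, the members closest to and farthest from each module mean, the pairs with extreme r, neighbouring related genes and rows at the threshold. Pairs and models named beyond these were chosen after their values were seen. Promoters, proteins and markers of green tissue were not used here. The alternatives were a cutoff of 2.2, Spearman's rho, lines left out, line medians subtracted, a minimum of 2000 FPKM, every row above 1000 FPKM, 1 lectin row, complete linkage, and tree distances of 0.4 and 0.6. The steps were tested on simulated data with Python 3.11.15, NumPy 2.4.6, pandas 2.3.3 and SciPy 1.17.1. Figures were drawn with Matplotlib 3.10.9.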

Additional observations from a re-analysis of the deposited data

How the results depend on the processing

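No paired analysis was possible because each line has 1 library. The number of abundant transcripts past the cutoff was 9, and 4 to 9 when Jack, R05-591, R08-1450 or R95-1705 was left out. It was 4 without R05-591, the line in which 5 of the 9 passed. Over all genes the number was 8037, with 3378 at a cutoff of 2.2. At the cutoff of 2 it was 5342 to 7213 with Jack, R05-591, R08-1450 or R95-1705 left out (5342 without R08-1450). A minimum of 2000 FPKM, which left 34 transcripts, gave 75 of 561 pairs with an r of at least 0.8 (160 of 1431 as reported), 0 of 561 with an r of at most -0.8 (14 of 1431), and of the 34 transcripts 26 in the largest pair of modules (40 of 54), 13 highest in Jack (21 of 54) and 11 lowest in R05-591 (21 of 54). With the line medians of the genes from 100 to 1000 FPKM subtracted, 109 pairs had an r of at least 0.8 and 59 an r of at most -0.8. In that setting 3 transcripts were highest in Jack and 10 lowest in R05-591. Pairs with an r of at most -0.8 numbered 7 to 36 with 1 line left out, 3 without both R08-1450 and R95-1705, and 22 over every row above 1000 FPKM. Complete linkage left 19 members in the largest pair of modules. Lowest in R08-1450 or R95-1705 were 22 of 54 transcripts, 23 with the line medians over all genes subtracted and 18 of the 34. Highest in R05-591 or M23 were 9 of 54, 8 with these medians subtracted and 7 of the 34. Counts over the 34 transcripts are of a smaller set, so they cannot be set against those of the 54 as raw counts. The cause of the other shifts was not tested. Single libraries, a table that gives no depth and values without FPKM per line limit every comparison between lines, and profiles with a span shared by several rows cannot be split further.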
